A study of Pyrus pyrifolia with 6 samples.

Results

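A set of 82 genes had reads in the russet skin of sand pear fruit and no read in the green skin of a bud mutant of the same cultivar. The genes were chosen from the 42966 genes of the deposited expression table by a rule on the measured values. A gene had to have a value above 0 in each of the 3 russet libraries, a russet mean of at least 0.5 FPKM, and a value of 0 in each of the 3 green libraries. FPKM is a read count scaled for comparison, in which a gene's reads are divided by its length and by the depth of the library. Of the 97 genes with this pattern, 9 loci that the authors had added from the assembled reads, 4 genes on 3 scaffolds and 2 fatty acyl-CoA reductase genes were left out. Because the difference between russet and green skin chose the genes, their own levels are given as a description and no test of them is reported.

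The skin of russet ‘Niitaka’ (libraries A1, A2 and A3) was set against that of green ‘Suisho’ (libraries B1, B2 and B3). ‘Suisho’ is a bud mutant line of ‘Niitaka’, i.e., it was propagated from a shoot with a changed trait, so both lines share most of their genome. All fruits were taken 80 d after anthesis from healthy trees in the open, and each sample pooled the skin of 10 fruits. Nothing in the labels says that the samples of a line came from separate trees, so the p-values measure the spread between these pooled samples.

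Green skin of pear is an epidermis covered by a cuticle of cutin and wax. In russet skin the epidermis is replaced by a periderm, a layer of cork cells whose walls are lined with suberin, a polyester of fatty acids and phenolic compounds such as ferulic acid. Suberin synthesis draws on fatty acid, phenylpropanoid and lipid export pathways, and cork cells die when they mature. The labels of the libraries were checked against 2 lists from the study, which the study chose on these libraries. The first held 5 genes named as omega-hydroxypalmitate O-feruloyl transferase-like, which belong to suberin formation. All 5 were higher in russet skin, with summed levels of 81.6 to 147.5 FPKM in russet libraries and 7.89 to 8.37 FPKM in green libraries. All 6 genes of the cuticle list, for wax alkane and cutin synthesis, were lower in russet skin, with summed levels of 1.01 to 2.11 FPKM in russet and 104.3 to 143.4 FPKM in green libraries. In bulk skin, fewer cells of a type and less RNA per cell cannot be told apart, and the part of cell layers that differ between the skins in the results was not tested.

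The reads behind the FPKM values were recovered from the values themselves. Russet libraries rested on 33926183 to 42729578 reads and green libraries on 31381552 to 41686837 reads, so that a single read made 0.0234 to 0.0319 FPKM for a length of 1000 bp. The 82 genes took 39545 reads over the russet libraries, with 8 for the least covered genes, a median of 182 and 5817 for the most covered gene. At the same rate of reads, the green libraries together would have held 7.32 to 5323 reads per gene, with a median of 166.6. A count of 0 in green skin therefore sets a different limit for each gene. With a floor of 3 reads in all green libraries together, the level in russet skin was at least 1774-fold higher for the most covered gene, at least 55.5-fold higher at the median and at least 2.44-fold higher for the genes with the fewest reads. The bound was at least 100-fold for 27 genes and under 10-fold for 6 genes. These bounds allow for counting error in the green libraries only. They do not allow for the choice of the genes by their 0 green reads or for spread between samples, and are a description. The russet counts were taken as measured, so counting error in them, largest for genes with few reads, is not covered.

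The most abundant of the 82 genes was 103941676, on scaffold NW_008989347.1 from 56812 to 58793. It had 41.5, 30.2 and 42.2 FPKM in A1, A2 and A3, from 1835, 1682 and 2300 reads, against 0 in each green library, at least 1774-fold higher in russet skin. All 3 russet libraries were within 1.5 times of each other, and the gene has no name or pathway in the tables used here.

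Gene 108868275 (NW_008988255.1 from 41697 to 44570) had 17.4, 28.2 and 10.7 FPKM in the russet libraries, at least 530-fold higher than in green skin. Gene 103936120 (NW_008988793.1 from 193619 to 195054) was steadier, with 16.0, 16.6 and 14.3 FPKM in russet skin, at least 516-fold higher. Gene 103933186 (NW_008988627.1 from 218262 to 219703) had 7.32, 19.7 and 12.8 FPKM, at least 359-fold higher. Thus A2 was the highest russet library for each of these 3 genes, and A3 or A1 the lowest.

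Gene 103939313 (NW_008989053.1 from 26460 to 32843) had 18.7, 11.7 and 2.15 FPKM in A1, A2 and A3, so that 1 russet library lay far under the others although it still held 207 reads. Gene 103945047 (NW_008988040.1 from 943256 to 951937) had 10.4, 10.2 and 10.5 FPKM, a standard deviation of 0.137 FPKM (n = 3), and its bound was 1299-fold. These 6 genes were the ones with a mean of at least 10 FPKM.

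**Figure D1:**
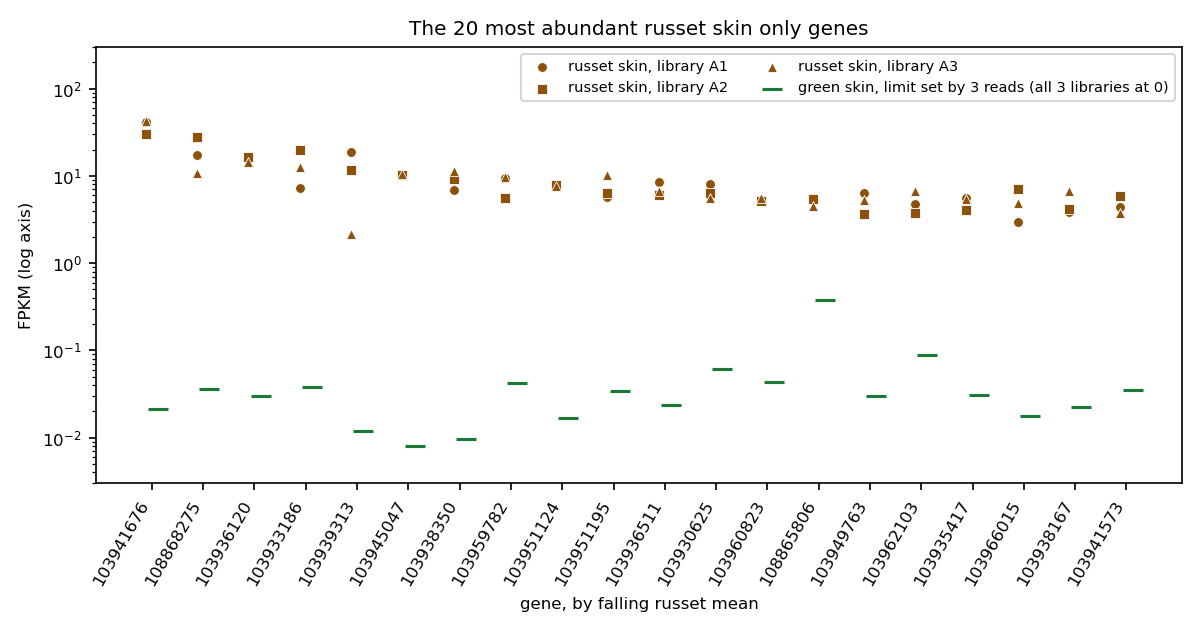
FPKM (log axis) of the 20 most abundant of the 82 genes, in order of falling russet mean. Brown symbols are the 3 russet libraries and each green dash is the level that 3 reads over the 3 green libraries would give, since all green values are 0. Russet values reach 42.2 FPKM for 103941676, and A3 of 103939313 lies far under its other libraries.

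A mean of 5 to 10 FPKM was found for 10 genes. Among them, 103938350 had 6.86, 9.11 and 11.3 FPKM in the russet libraries, 103959782 had 9.54, 5.54 and 9.63 FPKM, and 103930625 had 8.08, 6.36 and 5.61 FPKM. Gene 103960823, with 5.18, 5.13 and 5.54 FPKM, and 103951124, with 7.57, 7.92 and 7.69 FPKM, varied little. None of these 5 genes has a description in the part of the annotation used here. Gene 103949763 had 6.38, 3.68 and 5.35 FPKM. Gene 108865806 had 5.58, 5.38 and 4.52 FPKM but is only 74 bp long, so these values rest on 14, 17 and 14 reads and its bound is at least 13.7-fold.

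A mean of 1 to 5 FPKM was found for 34 genes and a lower one for 32 genes, i.e., 39.0% of the set. The median over the 82 genes was 1.46 FPKM. There were 25797 genes with a russet mean of at least 0.5 FPKM, of which the set made up 0.318%, and their median was 8.31 FPKM. The genes were therefore mostly of low abundance in russet skin, with a few exceptions.

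At the limit of the rule, the members with the lowest means were 108867444 at 0.520 FPKM from 59 reads, 103966989 at 0.522 FPKM from 51 reads and 103951435 at 0.544 FPKM from 51 reads. The genes just outside, with the same pattern of zeros, were 108867683 at 0.475 FPKM from 30 reads, 103944402 at 0.471 FPKM from 43 reads and 103964338 at 0.470 FPKM from 72 reads. Another 85 genes met the rule except for 1 to 3 reads over the green libraries, more than the set itself holds. With the roles of the skins exchanged, the same limits gave 98 genes, read in green and silent in russet skin, with a median of 1.51 FPKM in green skin.

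No russet library stood apart for the set as a whole. A1, A2 and A3 were the highest russet library for 26, 26 and 30 genes, and the lowest for 27, 30 and 25 genes. The coefficient of variation among russet libraries ran from 1.32% for 103945047 to 107.7% for 103933187, with a median of 27.6%. Over the 44 genes of the set with 100 to 1000 russet reads the median was 25.8%, beside 22.1% over all 8877 genes with as many reads and a mean of at least 0.5 FPKM. The spread of the set was thus close to that of other genes of like coverage, as a description.

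A group of 8 genes varied by at least 5-fold between the highest and the lowest russet library. Gene 103933187 had 1.42, 0.318 and 4.86 FPKM from 32, 9 and 135 reads. Gene 103950093 had 0.780, 0.0619 and 1.39 FPKM from 10, 1 and 22 reads, and its neighbour 103950094 varied in the same order, with 0.376, 0.0918 and 1.45 FPKM in russet libraries and 0, 0 and 0.0312 FPKM in green libraries. Both genes thus had their lowest russet value in A2 and their highest in A3.

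Gene 103951435 had 0.657, 0.0579 and 0.917 FPKM and 103951359 on the same scaffold, but 785128 bp away, had 1.03, 0.234 and 1.51 FPKM, again with A2 lowest. The other 4 of the 8 were 103939313, 103926608 and 103948300, which were lowest in A3, and 103927084, which was lowest in A1. At the other end, 26 genes varied by less than 1.5-fold.

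**Figure D2:**
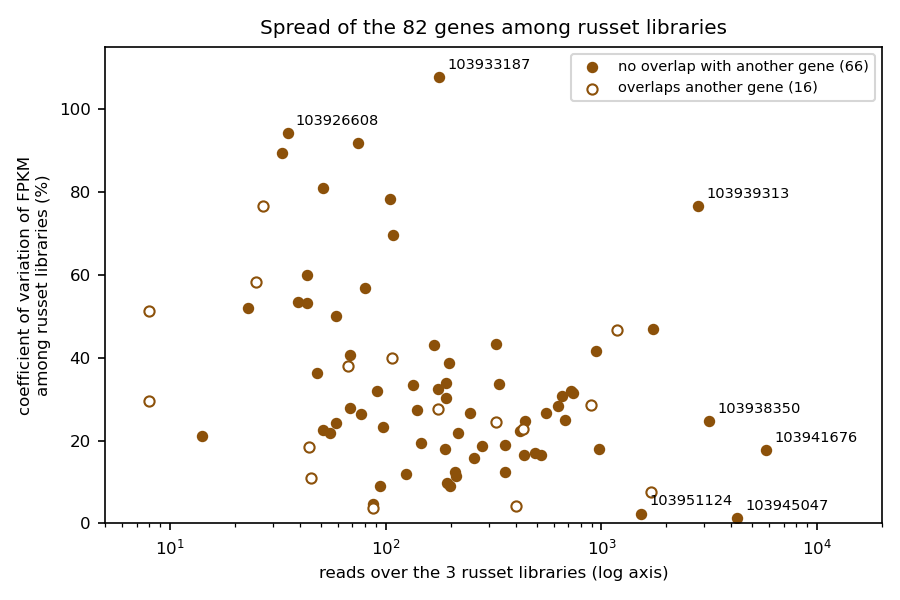
Coefficient of variation of FPKM among the 3 russet libraries (%) against the reads over these libraries (log axis), 1 point per gene. Open circles are the 16 genes that overlap another gene. Most of the widest spreads lie at low coverage, but 103939313 with 2811 reads has 76.6%, while 103945047 with 4260 reads has 1.32%.

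The genes of the set were short. Their median deposited length was 895 bp, against 1611 bp for all genes with a russet mean of at least 0.5 FPKM, and 20.7% of them were under 500 bp long, against 2.63%. Between 0.5 and 5 FPKM the medians were 886 bp for the 66 genes of the set and 1608 bp for all 9615 genes of that range. The genes seen in green skin and not in russet skin were as short, with a median of 817 bp and 19.4% under 500 bp. At a given FPKM a short gene holds fewer reads, and how far the rule favours short genes was not tested.

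Few of the genes have an annotation in the tables used here. The part of the study's gene table used here describes 1780 genes, and 3 of the 82 are among them. Pathway lists held 12 of the 82 and lists of gene ontology terms held 9, and both kinds of list were used in part. Together 21 genes had an entry in the parts used and 61 had none there. The pathway lists hold genes that the study had called different on these same libraries, so their counts are not independent evidence.

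Gene 103927180 (NW_008988413.1 from 414425 to 417682) is described as lipase 3-like. Lipases cut the ester bonds of lipids. It had 1.09, 0.803 and 0.635 FPKM in the russet libraries, from 140 reads, at least 42.7-fold higher than in green skin. Of the other 15 described genes with acyl-CoA, ketoacyl, ECERIFERUM, GDSL, lipase or patatin in their names, 9 had a mean over all libraries of 0.1 FPKM or more and were tested with limma on log2(FPKM + 0.1). At an adjusted p (Benjamini-Hochberg) under 0.05, 3 were higher and 2 lower in russet skin. Over all 30161 genes tested in this way, 15.3% were called, 8.05% higher and 7.29% lower. Without A1 or without B2 the number higher was 1. The described genes 103926608 and 103927084 are named as uncharacterized.

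Several of the genes were listed under lipid and isoprenoid metabolism. Gene 103935417 (NW_008988745.1 from 44088 to 46145) belongs to the list of diterpenoid biosynthesis, the pathway that also leads to gibberellins, and to that of oxidoreductase activity. It had 5.51, 4.04 and 5.38 FPKM in the russet libraries from 522 reads, at least 159-fold higher. The other 4 genes of the diterpenoid list went both ways, with 1 higher and 3 lower in russet skin. The higher one was 103935418, which lies next to 103935417 on the same strand and shares its assigned apple gene in the pathway list. Gene 103952598 (NW_008988132.1 from 177488 to 180296), listed under carotenoid biosynthesis, a source of abscisic acid, and under lipid biosynthesis, had 0.582, 0.550 and 0.544 FPKM. Of the other 8 genes of the carotenoid list, 6 were higher and 2 lower. Gene 108868572 (NW_008988334.1 from 476406 to 487198), listed under steroid biosynthesis, which makes membrane sterols, had 0.478, 1.09 and 1.09 FPKM, whereas the 4 tested genes among the other 5 of its list were all lower in russet skin.

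Gene 103938167 (NW_008988039.1 from 3045719 to 3047348) is in the list of phenylalanine metabolism, which feeds the phenolic part of suberin and lignin. It had 3.88, 4.22 and 6.73 FPKM in russet skin from 735 reads, at least 224-fold higher. The other 16 genes of that list, all called by limma, were higher in 11 cases and lower in 5. Over all tested genes 8.05% were called higher and 7.29% lower. Genes 103959858, 103935882 and 103936489 were listed under oxidation-reduction, with means of 0.959, 1.59 and 0.581 FPKM, and 103936202 under oxidoreductase activity, with 1.48, 0.618 and 1.57 FPKM. Genes 103936511 and 103948605 were listed as hydrolases acting on ester bonds, the class that includes lipases. Gene 103936511 had 8.53, 6.12 and 6.65 FPKM in russet skin, and 103948605 had 1.41, 1.92 and 1.85 FPKM.

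The other annotated genes belong to primary metabolism, RNA and protein turnover and signaling. Gene 103967193, listed under pyruvate and carbon metabolism and the citrate cycle, had 2.33, 1.07 and 1.29 FPKM. Gene 103936325, listed under oxidative phosphorylation, had 0.603, 0.753 and 1.75 FPKM from 43 reads. Gene 103935455, listed under glycan degradation, had 0.909, 1.17 and 0.839 FPKM. All of these were of low abundance in russet skin. Among the other genes of their lists, 4 were called higher and 8 lower for pyruvate metabolism, and 15 and 16 for carbon metabolism. The counts were 1 and 3 for the citrate cycle, 12 and 13 for oxidative phosphorylation, and 0 and 3 for glycan degradation.

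Gene 103962097, in the list of RNA degradation, had 1.72, 1.82 and 2.55 FPKM, and 103941285, in the ribosome list, had 1.95, 1.84 and 2.28 FPKM. Gene 103966404, listed under spliceosome, endocytosis and protein processing, had 1.31, 1.42 and 1.79 FPKM. Gene 103959612, in the list of plant hormone signal transduction, had 1.16, 1.04 and 0.957 FPKM, and 103939241, listed under autophagy, had 1.85, 2.80 and 2.93 FPKM. No russet library was lowest throughout, and each value in green skin was 0. Among the other genes of these lists, 7 were called higher and 9 lower for RNA degradation, 13 and 24 for ribosome, and 5 and 16 for spliceosome. The counts were 4 and 5 for endocytosis, 8 and 8 for protein processing, 16 and 13 for hormone signal transduction, and 1 and 1 for autophagy.

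The 82 genes lie on 68 of the 1688 scaffolds that carry a gene of the deposited table. The reference is the genome of Chinese white pear, whose build the sources used here do not give. No scaffold held more than 2 of the 82 genes, and 14 held 2. In 6 of these 14 scaffolds the 2 genes were direct neighbours. Coordinates are those of the deposited gene table, and exons and introns were not analysed here.

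Genes 103938167 and 103938350 lie on opposite strands of NW_008988039.1, with 8177 bp between them and no gene in between. Gene 103938350 had 6.86, 9.11 and 11.3 FPKM in A1, A2 and A3, and both genes were lowest in A1 and highest in A3. Their outer neighbours were read in both skins. Gene 103938017 had 3.74, 4.64 and 4.56 FPKM in russet and 3.94, 5.03 and 5.27 FPKM in green libraries (log2 fold change -0.13, SE 0.18, adjusted p = 0.708, limma). Gene 103938256 had 9.47, 7.29 and 10.4 FPKM in russet and 7.18, 8.83 and 11.3 FPKM in green libraries (adjusted p = 0.997, limma). The libraries of both skins overlapped at both flanking genes, whereas the pair between them had 3902 reads in the russet libraries.

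Genes 103951195 and 103951124 lie on the same strand of NW_008988118.1, 3091 bp apart. Gene 103951195 had 5.76, 6.35 and 10.1 FPKM in russet skin. The next gene of the scaffold, 103951125, was also higher in russet skin, with 8.31, 5.81 and 6.33 FPKM in russet and 0.369, 0.415 and 0.156 FPKM in green libraries (log2 fold change 4.11, SE 0.33, adjusted p = 0.000274, limma). It was followed by 103951126, which differed less, with a mean of 25.3 ± 1.95 FPKM in russet and 16.0 ± 1.38 FPKM in green skin (SD, n = 3 each; log2 fold change 0.66, SE 0.12, adjusted p = 0.00990, limma).

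Genes 103936512 and 103936511 lie on opposite strands of NW_008988821.1, 1498 bp apart. The longer 103936512 had 1.33, 2.32 and 2.32 FPKM in russet skin. On one side, 103936510 had 2.29, 0.726 and 1.30 FPKM in russet and 0.930, 0.657 and 1.98 FPKM in green libraries, which overlapped. On the other side, 103936518 was at 0 in all libraries, and beyond it 103936519 was lower in russet skin, with 0.0985, 0.0196 and 0.220 FPKM in russet and 1.36, 0.897 and 1.17 FPKM in green libraries (log2 fold change -2.65, SE 0.42, adjusted p = 0.00623, limma).

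The other 3 pairs were less abundant. Genes 103948629 and 103948605 on NW_008988095.1, 7195 bp apart on the same strand, had means of 0.616 and 1.73 FPKM in russet skin. The gene after the silent neighbour of 103948629 was 103948604, with 3.92, 3.60 and 2.70 FPKM in russet and 0.0239, 0.0375 and 0 FPKM in green libraries (log2 fold change 4.86, SE 0.29, adjusted p = 8.12e-05, limma). Genes 103943602 and 108866981 on NW_008988060.1 had means of 1.66 and 0.553 FPKM, and 108866981 rests on 14 reads. Beside them, 103943603 was read in both skins, with a mean of 21.7 ± 2.86 FPKM in russet and 23.8 ± 3.28 FPKM in green skin (SD, n = 3 each; adjusted p = 0.641, limma). Genes 108868572 and 103965578 on NW_008988334.1 overlap on the same strand, as the whole of 103965578 lies within the other gene, so they can share reads.

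**Figure D3:**
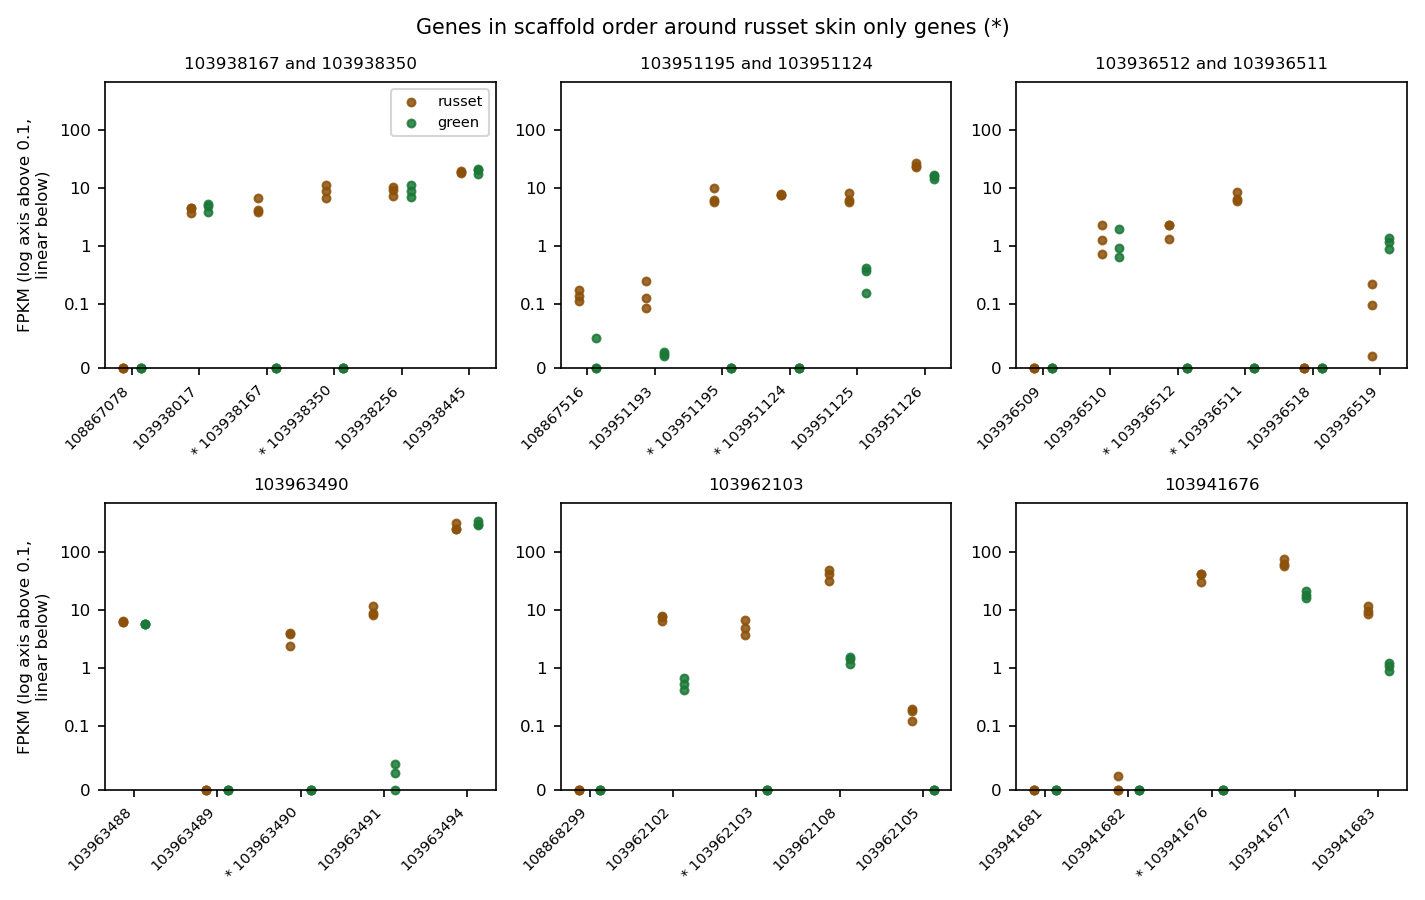
FPKM in the single libraries (log axis above 0.1, linear below) of genes in scaffold order around 6 places of the set. Asterisks mark genes of the set, brown points the russet and green points the green libraries. Around 103938167 and 103938350 the flanking genes are read in both skins. Around 103962103 the next gene on each side is also higher in russet skin. After the end of 103941676 the next gene, 103941677, is higher too, whereas 103941682 before its start has 0.0215 FPKM in A3 and 0 elsewhere. Gene 103963490 lies beside 103963491, at 8.28 to 11.8 FPKM in russet and up to 0.0401 FPKM in green libraries.

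A mirrored arrangement was found on NW_008988343.1. Gene 103965995, on the plus strand from 231005 to 234520, is followed by 103965996 and 103966019. At 491918 to 495433 lies 103966015 on the minus strand, preceded by 103966014 and 103966023 in the reverse order. The lengths of the 3 genes of both blocks are nearly the same, at 1562 bp for both genes of the set, 6959 and 6958 bp for the next genes, and 1662 bp for both of the last genes. The spaces between them are alike as well, at 818 and 819 bp and at 2040 bp in both blocks.

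In the russet libraries, 103965995 had 1.15, 1.26 and 0.979 FPKM, and 103966015 had 2.94, 7.06 and 4.83 FPKM. Gene 103966015 was thus the higher of both in each of the 3 libraries. The next genes did not follow them into 0 in green skin. Gene 103965996 had 1.01, 0.613 and 1.02 FPKM in russet and 0.548, 0.151 and 0.968 FPKM in green libraries (adjusted p = 0.420, limma), and 103966014 had 0.200, 0.335 and 0.0933 FPKM in russet and 0.160, 0.282 and 0.148 FPKM in green libraries (adjusted p = 0.989, limma). The sources used here do not give how reads that match both blocks were assigned, so the split of any such reads is uncertain. No sequences of these genes were used here, so whether the blocks are copies of each other was not tested.

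Of the 82 genes, 16 overlap another gene, 11 of them a gene on the same strand. The sources used here do not say whether reads were counted by strand, so reads of overlapping genes may be assigned to the wrong partner. Of 9 genes that lie wholly within another gene, 5 lie within one that also had reads in green skin. Gene 108865806 (74 bp) lies on the opposite strand within 103930446, which had 162.5, 179.6 and 164.7 FPKM in russet and 74.4, 79.2 and 56.0 FPKM in green libraries. Gene 103932231 (52 bp) lies within 103932216, which had means of 1.18 FPKM in russet and 1.05 FPKM in green skin, and rests on 3, 3 and 2 reads. Gene 103943153 overlaps 103943155, whose mean was 1119 FPKM in russet and 1048 FPKM in green skin, and had 14, 34 and 19 reads itself. Gene 103941573, with 4.36, 5.84 and 3.78 FPKM in russet skin, shares 65 bp with 103940776 on the opposite strand. The values of such genes are uncertain to that extent.

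Gene 103933186, the fourth most abundant, overlaps 103933185 by 565 bp on the same strand. Gene 103933185 had 1.78, 8.81 and 0.630 FPKM in russet and 0.0452, 0 and 0 FPKM in green libraries, so that A2 was the highest russet library for both. The gene beyond it was at 0 in every library, and the next one again was 103933187, also of the set.

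The genes next to the 82 in scaffold order were tested, since their values did not bring the 82 genes into the set. They were 144 genes, counting the nearest one outside the set on each side. An adjacent gene of the set was passed over, so the rule did shape the choice of neighbours to that extent. Of these, 22 were at 0 in all 6 libraries, i.e., 15.3%, against 18.3% of all genes, and 21 had reads but a mean under 0.1 FPKM. Of the 101 neighbours tested, limma called 25 higher and 7 lower in russet than in green skin. These are 24.8% and 6.93% of the tested neighbours, beside 8.05% and 7.29% of all tested genes. The median log2 fold change was 0.19 among the neighbours and 0.003 among all tested genes. When the numbers of the libraries were taken as pairs, 11 neighbours were called lower, beside 9.63% of all genes, and 27 higher, beside 10.4%. Without B3, 4 were called lower. In an alternative, a neighbour that overlaps the gene of the set was replaced by the next gene along the scaffold that does not. Of the 99 genes then tested, 22 were higher and 7 lower.

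**Figure D4:**
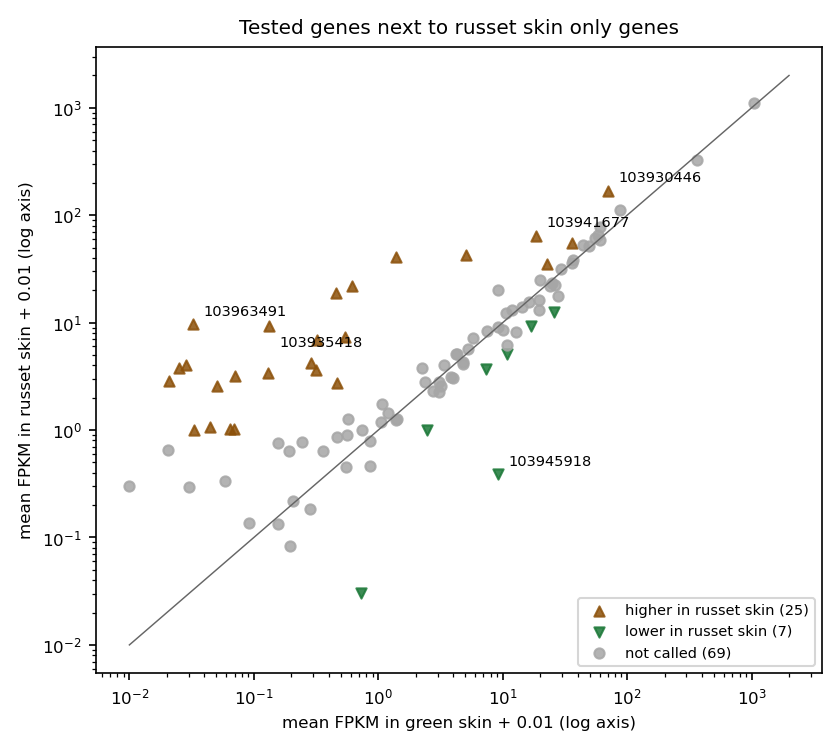
Mean FPKM in russet skin against that in green skin (both + 0.01, log axes) of the 101 tested genes next to a gene of the set. Triangles up are the 25 called higher in russet skin, triangles down the 7 called lower, and grey points the 69 not called, most of which lie near the line of equal levels. Of the 25, 21 have a log2 fold change of at least 2.

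Of the 82 genes, 25 had a neighbour called higher in russet skin and 6 a neighbour called lower, and 30 had a neighbour called in either direction. Over all tested genes 8.05% were called higher and 7.29% lower. How many genes outside the set have a called neighbour was not counted, and some neighbours count for more than 1 gene here. In 1 gene, 103962103, both neighbours were called higher. It had 4.80, 3.74 and 6.79 FPKM in russet skin, from 190 reads. Gene 103962102 on one side had 7.63, 6.33 and 7.85 FPKM in russet and 0.527, 0.414 and 0.661 FPKM in green libraries (log2 fold change 3.55, SE 0.23, adjusted p = 0.000108, limma). Gene 103962108 on the other side had 30.9, 41.7 and 49.7 FPKM in russet and 1.15, 1.43 and 1.55 FPKM in green libraries (log2 fold change 4.77, SE 0.21, adjusted p = 2.80e-05, limma).

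The 5 most abundant neighbours called higher, by the mean over all libraries, were 103930446, 103932208, 103941677, 103961811 and 103966973. Gene 103966973, in the list of phenylpropanoid biosynthesis, had 56.5, 38.1 and 33.1 FPKM in russet and 5.01, 5.99 and 4.21 FPKM in green libraries (log2 fold change 3.02, SE 0.23, adjusted p = 0.000204, limma). Gene 103941677, a gene of the ribosome list next to 103941676, had 75.0, 58.0 and 61.2 FPKM in russet and 17.8, 16.3 and 21.3 FPKM in green libraries (log2 fold change 1.81, SE 0.15, adjusted p = 0.000329, limma). The libraries of the skins did not overlap at either gene, but unlike the genes of the set both were read in green skin.

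Gene 103930446, from the list of photosynthesis, differed by 1.29 on the log2 scale (SE 0.16, adjusted p = 0.00177, limma), and 103932208 by 0.62 (SE 0.12, adjusted p = 0.0125, limma). Gene 103961811 had 37.5, 31.0 and 37.0 FPKM in russet and 20.9, 28.4 and 19.2 FPKM in green libraries (log2 fold change 0.64, SE 0.17, adjusted p = 0.0478, limma), and 12 of 16 alternatives lost this call, with adjusted p from 0.0503 to 0.140 (limma). It lies between 108868273 and 108868275, both of the set. Gene 108868273 had 5.22, 4.25 and 2.25 FPKM in russet skin.

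Other neighbours with a large difference were chosen after their values were seen. Their levels in green skin ranged from nearly silent to about 1 FPKM in a library. Gene 103963491, directly beside 103963490 on the same strand, had 8.28, 8.94 and 11.8 FPKM in russet and 0.0401, 0 and 0.0266 FPKM in green libraries, i.e., 1384 reads against 3 (log2 fold change 6.32, SE 0.27, adjusted p = 2.715e-05, limma). Gene 103963490 of the set had 2.39, 3.76 and 3.91 FPKM there. Gene 103935418 had 9.48, 7.49 and 10.8 FPKM in russet and 0.253, 0.0745 and 0.0420 FPKM in green libraries (log2 fold change 5.49, SE 0.38, adjusted p = 0.000144, limma). Gene 103952519, in the list of alpha-linolenic acid metabolism, from which jasmonic acid is made, had 679 reads in russet and 3 in green skin (log2 fold change 5.12, SE 0.29, adjusted p = 6.52e-05, limma) and overlaps 103952598 by 102 bp on the same strand. Other neighbours with differences as large held more reads in green skin. Gene 103967958 had 24.4, 16.5 and 24.7 FPKM in russet and 1.12, 0.196 and 0.496 FPKM in green libraries (log2 fold change 5.17, SE 0.49, adjusted p = 0.000601, limma). Gene 103957215 had 21.0, 13.1 and 22.1 FPKM in russet and 0.320, 0.685 and 0.348 FPKM in green libraries (log2 fold change 5.12, SE 0.32, adjusted p = 9.45e-05, limma).

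Of the 7 neighbours called lower in russet skin, 103945918, from the list of monoterpenoid biosynthesis, differed most. It had 0.326, 0.457 and 0.345 FPKM in russet and 7.64, 9.89 and 9.77 FPKM in green libraries (log2 fold change -4.27, SE 0.22, adjusted p = 5.39e-05, limma). Its neighbour in the set, 108867147, had 0.804, 0.553 and 0.695 FPKM in russet skin from 44 reads and overlaps 3 other genes, 2 of them on the opposite strand. Gene 103967247 was lower as well, with 0, 0 and 0.0608 FPKM in russet and 0.153, 0.791 and 1.22 FPKM in green libraries (log2 fold change -2.51, SE 0.64, adjusted p = 0.0403, limma), a call that 7 alternatives lost (adjusted p from 0.0684 to 0.132, limma). The 4 lower neighbours that were more abundant than both, by the mean over all libraries, had smaller changes, with log2 fold changes of -1.05 for 103934288, -0.83 for 103934295, -1.11 for 103960359 and -0.96 for Novel00250 (adjusted p from 0.00536 to 0.0267, limma). The call of 103960359, a ribosome gene by its list, was lost without B1, B2 or B3 (adjusted p = 0.0515, 0.0970 and 0.0822, limma).

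Other genes of the set lay among genes that were read in both skins. In 13 cases both neighbours had a mean of at least 1 FPKM in both skins, and in 8 of them neither neighbour was called. Over all tested genes 15.3% were called, and the like count around other genes was not made, so these counts are a description. Besides 103943153 and the pair 103938167 and 103938350, which have the same neighbours, the genes without a called neighbour were 103929207, 103936202, 103957939, 103960823 and 108867444. For example, 103929207 had 1.23, 0.883 and 0.901 FPKM in russet skin, between 103929206 with means of 13.04 FPKM in russet and 11.9 FPKM in green skin and 103929208 with 61.7 FPKM in russet and 55.1 FPKM in green skin (adjusted p = 0.618 and 0.481, limma). At 7 genes of the set, both neighbours had a mean under 0.1 FPKM.

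Calls were counted further along the scaffold, at 2 and 3 genes from each gene of the set. Before the start of the genes, 24.5%, 24.6% and 24.4% of the tested genes at the first, the second and the third place were called higher in russet skin. After their end, 25%, 10.6% and 20% were called higher, again beside 8.05% of all tested genes. The shares called lower ran from 1.75% to 9.62%, beside 7.29%. At each place 45 to 57 genes were tested, and some of them count for more than 1 gene of the set. These genes lie side by side, so they are not independent, and the shares are given as a description.

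**Figure D5:**
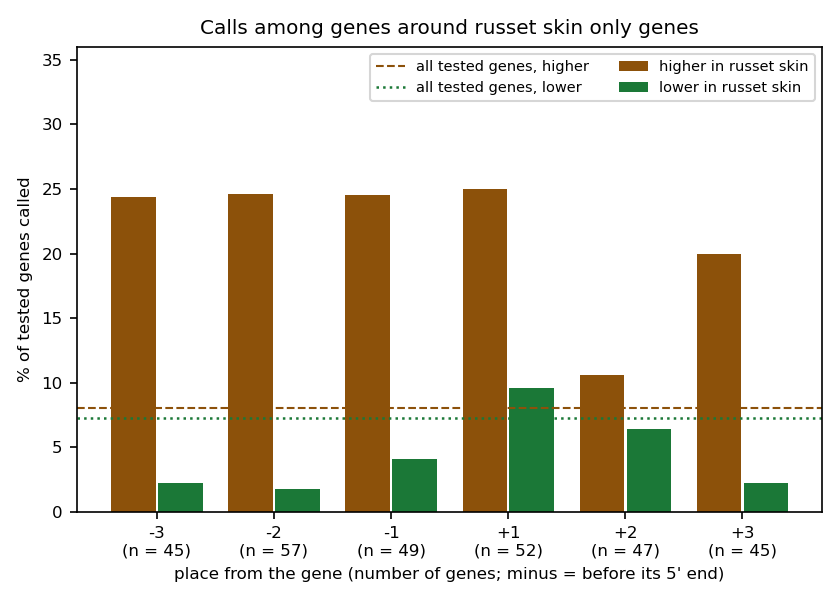
Share of tested genes called higher (brown, left bars) or lower (green, right bars) in russet skin at 1 to 3 genes before the start (minus) and after the end (plus) of the genes of the set. Dashed and dotted lines give the shares over all tested genes, 8.05% and 7.29%. The share called higher lies between 10.6% and 25% at the 6 places.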

How the data were processed

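RNA-Seq libraries of 3 russet and 3 green samples were used. Per the labels and the methods, the authors mapped filtered reads by HISAT2 2.0.4 to the Chinese white pear genome, built transcripts by Cufflinks 2.1.1 and deposited FPKM per gene and library beside gene positions and lengths. The letters A (russet) and B (green) come from the study, and the sources used here do not tell which green sample is which B column. The 82 genes and the gene lists were chosen with earlier results of these data known. Reads were recovered from FPKM and length: 74.5% of 191857 values above 0 came out whole within 0.0001, and 8439 genes, 15 of the set among them, needed another length. The fit by limma 3.58.1 (R 4.3.3; eBayes with a trend, two-sided) was on log2(FPKM + 0.1) of all 30161 genes whose mean reached 0.1 FPKM, the 82 included. Russet minus green was the fold change, with a threshold of 0.05 on the Benjamini-Hochberg adjusted p. Tests are reported for genes outside the set only, but the shares over all tested genes include the set. This scale understates changes of low genes. An exact permutation test of 3 against 3 libraries cannot go below p = 0.10 and was not run. Tested on simulated data (29988 genes), the fit found all 100 genes changed 4-fold, 60 of the 100 changed 2-fold, and 15 false calls, more than the threshold aims for. Same-number libraries deviated together (correlations across genes of 0.195, 0.211 and 0.323), so the numbers were also taken as pairs in an alternative. Named are the 20 most abundant genes, annotated and adjacent genes of the set, the genes at the limit, and the 5 most abundant neighbours called in each direction. Python 3.11.15 with pandas 2.3.3, numpy 2.4.6 and matplotlib 3.10.9 made the tables and figures. Protein and hormone data were not analysed here.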

Additional observations from a re-analysis of the deposited data

How the results depend on the processing

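The number of genes with reads in russet and none in green skin depends on its limits. It was 137 for a limit of 0.25 FPKM, 50 for 1 FPKM, 167 with up to 3 green reads and 131 with at least 30 russet reads in place of the FPKM limit. Up to 1 green read gave 117, and leaving out single libraries gave 80 to 117. Neighbours called numbered 23 to 26 higher and 4 to 7 lower with single libraries left out. With 2 neighbours on each side, 41 of 195 tested were higher and 11 lower. With the replicate block, 27 were higher and 11 lower, and 31 of the 32 called neighbours kept their call, the exception being 103961811 (adjusted p = 0.0578, limma). The other fits (pseudocounts 1 and 0.01, no filter or one at 1 FPKM, quantile normalization, median-ratio scaling, robust or untrended moderation, and voom on recovered reads) gave 20 to 27 higher and 6 to 9 lower. For the fatty acyl and wax enzyme names, single libraries left out gave 1 to 4 higher and 2 to 3 lower. The comparison with the closest protein copies, and the promoter sequences, were not run because no sequences of these genes were used here. For genes with few reads, a 0 in green skin sets only a weak limit. Gene 108866285 had 8 russet reads, which correspond to 7.32 green reads at the same rate. Its bound was 2.44-fold, without counting error in the russet reads.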
